A study of Mus musculus with 8 samples.

Results

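Cytosolic ribosomal proteins are the protein subunits of the ribosome that translates messages in the cytoplasm, and their genes are among the most abundantly transcribed in any cell. The small subunit (Rps genes) reads the message, the large subunit (Rpl genes) joins the amino acids, and the acidic stalk (Rplp0, Rplp1 and Rplp2) recruits the translation factors. Their messages typically begin with a run of pyrimidines, the 5 prime terminal oligopyrimidine or TOP tract, through which mTORC1 raises or lowers their translation, often with little change in message level. The genes were taken from the array by name: Rpl or Rps followed by a number with an optional a, l, x or y, or Rplp0, Rplp1, Rplp2 or Rpsa, leaving out S6 kinases and pseudogene names. The rule found 81 of 37074 gene names, measured by 176 of 56605 probes, and each gene was represented by its brightest probe.

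All mice were C57BL/6J, 12 weeks old, and the methods describe them as male. The 4 Co mice received intravenous saline, and the 4 Pg mice received sonicated P. gingivalis, an oral gram-negative bacterium, intravenously in 100 μL of saline (the labels print the dose as 108 colony-forming units, and the methods give 10 to the power of 8). Brown adipose tissue (BAT) was taken 18 h after the single injection, and RNA of each mouse was hybridized to 1 one-color Agilent array. All arrays were on 1 slide with Co mice in row 1 and Pg mice in row 2, so that position and treatment cannot be told apart.

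The labelled tissue was checked against its markers. Ucp1, the uncoupling protein that defines brown fat, Elovl3 and Slc27a2 were not well above background on any of the 8 arrays, while the other 7 brown adipocyte markers and all 10 adipocyte markers were measured. All 10 skeletal muscle markers were well above background on all 8 arrays, and their summed signal was 21.27 to 21.37 in Co mice and 21.28 to 21.39 in Pg mice on the log2 scale. The summed signal was 17.34 to 17.43 and 17.24 to 17.54 for the adipocyte markers and 15.7 to 15.85 and 15.49 to 15.76 for the brown adipocyte markers. Fabp4 and Pnpla2 carried the adipocyte sum (16.28 and 16.2 in Co mice), beside 10.29 for Adipoq and 6.89 for Plin1. Cpt1b carried the brown adipocyte sum (15.24 in Co mice), beside 13.44 for Cidea. The values below are therefore those of the tissue as taken, which held muscle messages, and the share of each cell type was not tested. Of the immune cell markers, 6 of 7 measured macrophage genes and 5 of 6 neutrophil genes had a higher mean in Pg mice, with none past q under 0.1. Their summed log2 signals were 12.97 to 13.75 in Co and 12.98 to 14.69 in Pg mice for macrophage genes, and 15.31 to 15.63 and 15.56 to 15.76 for neutrophil genes, a sum carried by Csf3r (15.4 in Co and 15.64 in Pg mice). S100a8, a calcium-binding protein abundant in neutrophils, was 4.56 to 5.33 in Co mice and 8.59, 8.32, 5.18 and 6.76 in Pg mice. Its log2 fold change was 2.16 (limma unadjusted p = 0.0159, q = 0.132), and its partner S100a9 had 2.04 (limma unadjusted p = 0.0391, q = 0.195). Of 5 measured lymphocyte genes 3 had a higher mean, and Cd79b, a B cell gene, was a DEG (log2 fold change 1.69, limma q = 0.0867). The 6 red cell genes all had a lower mean in Pg mice, and their median log2 fold change was -0.61, with none past q under 0.1 and summed signals of 17.66 to 18.37 in Co and 16.62 to 18.42 in Pg mice. The part of these cell types in the values below was not tested, and in whole tissue fewer cells of a type and less RNA per cell cannot be told apart.

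The annotated starts were searched for this tract. Of the 81 genes, 60 had a promoter in the RefSeq table (GRCm38.p6), and 28 of these (46.7%) had a C followed by at least 4 C or T on the transcribed strand, with that C within 5 bases of an annotated start on either side, against 21.2% of the 27025 genes with a promoter. Each window below spans 30 bases, 15 before the annotated start and 15 from it on, with the pyrimidine run in capitals. Rps6, Rps10, Rpl13a and Rpl38 are shown because their values are given below, and Rpl3l, the muscle paralog, because neither of its annotated starts has such a run. The windows lie at chr4:86857353-86857382 (minus strand), chr17:27635230-27635259 (minus), chr7:45128731-45128760 (minus), chr11:114668565-114668594 (plus) and chr17:24727811-24727840 (plus).
Rps6: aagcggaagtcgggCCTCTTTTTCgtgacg
Rps10: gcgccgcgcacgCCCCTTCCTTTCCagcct
Rpl13a: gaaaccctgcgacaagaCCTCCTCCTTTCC
Rpl38: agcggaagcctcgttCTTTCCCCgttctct
Rpl3l: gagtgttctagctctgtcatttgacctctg
The 28 genes with the run, all tested, had a median log2 fold change of 0.04 with 20 higher in Pg mice, and the 29 tested genes without it had 0.03 with 20 higher. A missing run says only that these letters are not in this window.

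The brightest probe of each gene was chosen by its signal, so the brightness below, and in part the small spread, follow from that choice. Signals are quantile-normalized and on the log2 scale, and a probe was tested where it was well above background on at least 4 arrays. Of the 81 genes, 78 were tested, with mean signals between 9.38 and 17.2 and a median of 15.92, and no spot of theirs was saturated. Rpl37 was well above background on 3 Co arrays and 0 Pg arrays, with signals of 5.31, 4.35, 5.05 and 3.65 in Co mice and 3.96, 3.88, 3.38 and 3.62 in Pg mice. The other subunit and stalk genes had mean signals of 13.89 or more. Rpl37 has only 1 probe, and whether that probe reads its message was not tested. The testis paralog Rpl39l was well above background on 1 array and the testis paralog Rpl10l on 0, so these 3 genes have no test. The median SD among mice of a group was 0.057 in Co and 0.05 in Pg, against 0.139 and 0.144 over all 33819 tested probes. Bright probes vary less in general, and the 1688 other probes in the signal range of the subunit genes had median SDs of 0.066 and 0.07. Where a probe was printed in 10 spots, as for the chosen probes of 33 of the 78 genes, the median SD between its spots on 1 array was 0.048. This gives a mean of 10 spots an error of about 0.015. The median SD of these means between mice of a group was 0.046.

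Injection of P. gingivalis was followed by a change past q under 0.1 in 1 ribosomal protein gene, Rpl3, and in no gene past the limits for a DEG (q under 0.1 and fold change above 1.5). The q is limma's, with Benjamini-Hochberg adjustment over all tested probes. Over all probes 7.82% passed q under 0.1 (1.82% higher and 6% lower in Pg mice), and 1.61% were DEGs (0.313% higher and 1.3% lower). The array-wide count itself was unstable: 616 probes higher and 2028 lower became 1 and 1 without Co 3 and 58 and 156 without Co 2. At an unadjusted p under 0.05, 7 genes were higher and 3 lower in Pg mice, which is 12.8% of the 78 against 22.8% of all probes (6.86% higher and 16% lower) and 19.6% of the other probes of like signal. Groups that did not overlap were found for 12 genes higher and 1 lower in Pg mice, 16.7% against 15.8% of all probes (4.83% higher and 11% lower) and 20.2% of the probes of like signal. In the higher direction alone the share was 15.4%, against 4.83% of all probes and 10.7% of the probes of like signal. That excess depended on the scaling: with 75th percentile scaling 4 genes lay higher (5.13%, against 4.6% of all probes) and 8 lower (10.3%, against 9.72%), and with spike-in scaling 0 lay higher and 6 lower (7.69%, against 14%). The 95% interval of the change lay within 1.5-fold in either direction for 77 of 78 genes (70.1% of all probes), the exception being Rps4l, and within 1.25-fold for 71 (34.4%). Of the 1688 other probes of like signal 1645 and 1325 lay within these limits.

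Over the 78 genes the log2 fold change ranged from -0.18 to 0.33 with a median of 0.036, and the mean was higher in Pg mice for 54 and lower for 24. Leaving out 1 mouse gave medians from 0.02 (without Co 2, 47 higher and 31 lower) to 0.05. Over all probes the median was -0.04, with 42.3% higher, and over the other probes of like signal it was 0.007, with 53.1% higher. The direction of this small offset depended on how the arrays were scaled. With 75th percentile scaling 30 genes were higher and 48 lower with a median of -0.01, and with scaling to spike-in control spots 12 were higher and 66 lower with a median of -0.09. Under both scalings all probes moved too, to medians of -0.02 and -0.09, so that the genes and the whole array differed by at most 0.01 there. By role, 20 of 30 small subunit genes had a higher mean in Pg mice (median 0.026) and 30 of 42 large subunit genes (median 0.036), as did all 3 stalk genes (median 0.101). The summed signal of the small subunit genes was 21.05 to 21.15 in Co and 21.11 to 21.18 in Pg mice, and that of the large subunit genes 21.32 to 21.41 and 21.38 to 21.43. These ranges overlapped.

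**Figure D1:**
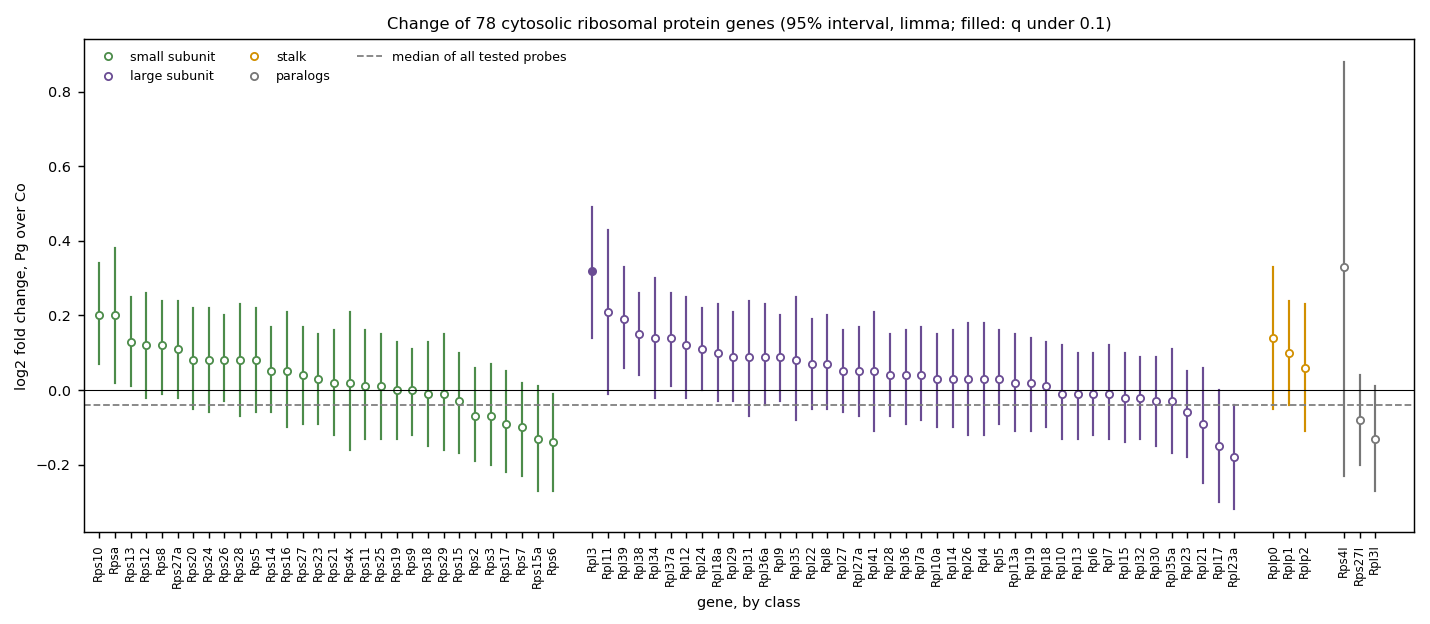
Log2 fold change of Pg over Co mice (vertical axis) for the 78 tested ribosomal protein genes by class, with 4 mice per group; lines are 95% intervals from limma and the dashed line is the median of all tested probes, -0.04. Only Rpl3 is filled (q under 0.1), and most intervals reach across 0.

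**Figure D2:**
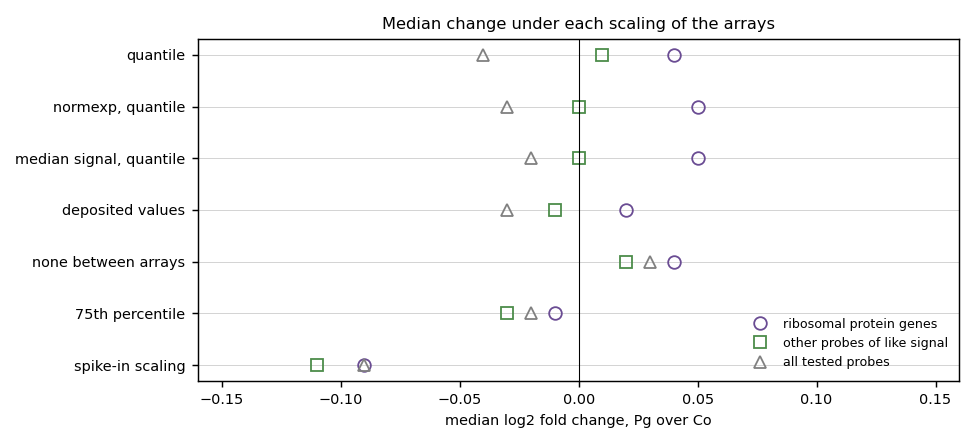
Median log2 fold change of Pg over Co mice (horizontal axis) for the ribosomal protein genes, for other probes of like signal and for all tested probes under 7 ways of scaling the arrays. The genes' median is 0.04 with quantile normalization, -0.01 with the 75th percentile and -0.09 with spike-in scaling, and lies within 0.05 of the probes of like signal in each.

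Rpl3 encodes a core protein of the large subunit that reaches into the peptidyl transferase center. Its signal in the 4 Co mice was 13.73, 13.73, 13.78 and 13.69, and in the 4 Pg mice 14.07, 14.14, 13.85 and 14.12. All Pg mice lay above all Co mice, with Pg 3 nearest to the Co range. The log2 fold change was 0.32 (SE 0.08, limma q = 0.0734), a fold change of 1.24. Its other probes gave log2 fold changes of 0.1 (q = 0.486) and 0.18 (q = 0.175). The call held in 6 of 17 alternative analyses, with values from 0.21 to 0.38, and leaving out any mouse other than Pg 3 ended it. With spike-in scaling the Rpl3 groups were no longer apart, and the log2 fold change was 0.21 (q = 0.249).

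Rpl3l is the paralog that takes the place of Rpl3 in the ribosomes of striated muscle. Its signal was 15, 15.05, 15.02 and 15.12 in Co mice and 14.88, 14.88, 15.03 and 14.88 in Pg mice. Pg 3 fell inside the Co range and the other Pg mice below it. The log2 fold change was -0.13 (SE 0.06, q = 0.251), which did not pass the test. With spike-in scaling it was -0.25 (q = 0.105).

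The Rpl3l signal relative to Rpl3 was taken within each mouse, as one of 8 paralog and parent pairs, of which 6 could be measured. Rpl3l minus Rpl3 was 1.27, 1.32, 1.23 and 1.43 in Co mice and 0.81, 0.73, 1.18 and 0.75 in Pg mice. The groups did not overlap, and Pg 3 was again the Pg mouse nearest to Co. The difference in log2 signal was lower by a mean of 0.44 in Pg mice (change -0.44), a ratio 0.73 times that of Co mice, with p = 0.0286 in an exact two-sided permutation test, the smallest that 4 against 4 mice allow, and 0.171 after Benjamini-Hochberg adjustment over the 6 pairs. With the other Rpl3 probes the change was -0.23 (exact permutation p = 0.114) and -0.31 (exact permutation p = 0.0571), and the groups overlapped. Of the 10 skeletal muscle markers 7 had a lower mean in Pg mice and none passed q under 0.1, with a list median log2 fold change of -0.016. Only Ckm had a limma unadjusted p under 0.05 (10% of the list, against 22.8% of all probes). Only Ckm had groups that did not overlap (10%, against 15.8% of all probes, 11% of them lower in Pg mice). Ckm, the muscle creatine kinase, had a log2 fold change of -0.15 (limma unadjusted p = 0.0355, q = 0.186), and before rounding its Pg mice (16.77 to 16.94) all lay below its Co mice (16.94 to 17.02). Skeletal muscle markers that varied widely between mice beside this pair were Myh4 (13.38 to 16.97 in Co and 11.38 to 17.07 in Pg mice) and Actn3 (11.78 to 13.65 and 10.49 to 14.01), and their part in the result was not tested.

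The probes of the 2 genes are printed because their difference rests on them. All are 60 bases long with coordinates as in the array's own annotation (mm9), and spans longer than the probe cross introns. Rpl3 probe 1, the brightest, spans chr15:79908295-79908445, probe 2 chr15:79908489-79908772 and probe 3 chr15:79912877-79912936, all on the minus strand, and the Rpl3l probe spans chr17:24872413-24872681 on the plus strand. Capitals mark the stretch of 27 bases over which Rpl3 probe 2 and the Rpl3l probe align without gaps, with 20 identical bases (74.1%).
Rpl3 probe 1: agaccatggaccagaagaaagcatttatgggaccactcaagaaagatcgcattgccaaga
Rpl3 probe 2: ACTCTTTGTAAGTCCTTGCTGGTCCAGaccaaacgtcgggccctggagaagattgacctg
Rpl3 probe 3: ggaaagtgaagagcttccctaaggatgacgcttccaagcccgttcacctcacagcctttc
Rpl3l probe: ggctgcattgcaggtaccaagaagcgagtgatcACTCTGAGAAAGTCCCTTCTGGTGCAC
Probes 1 and 3 had 37.3% and 33.3% identical bases with the Rpl3l probe at their best ungapped match.

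In the other pairs the Co and Pg mice overlapped, and no change passed the exact test. Rps27l minus Rps27 was -1.85 ± 0.08 (SD, n = 4) in Co and -1.97 ± 0.08 (SD, n = 4) in Pg mice (exact permutation p = 0.114). Rps27l encodes a near copy of the Rps27 protein and had a log2 fold change of -0.08 (q = 0.384). Rps4l, annotated as a transcribed pseudogene, minus Rps4x was -5.77 ± 0.28 and -5.47 ± 0.37 (SD, n = 4 each, exact permutation p = 0.229). Rps4l had the highest log2 fold change of all, 0.33, and the widest interval, from -0.23 to 0.88 (q = 0.461). Rpl22l1 minus Rpl22, Rpl36al minus Rpl36a and Rpl7l1 minus Rpl7 changed by -0.05, 0.01 and 0.08, with exact permutation p of 0.629, 0.886 and 0.6. The pairs of Rpl10l and Rpl39l were not measured, since these paralogs had no test.

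**Figure D3:**
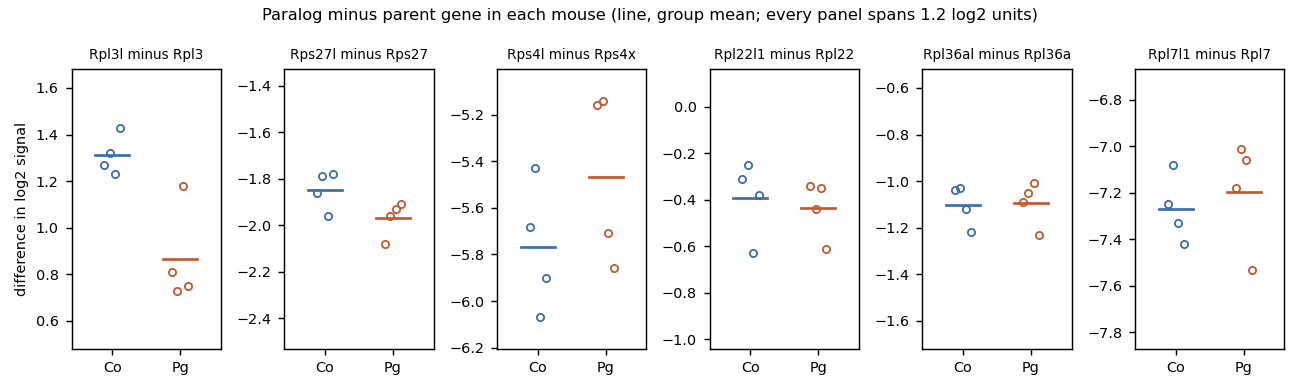
Paralog minus parent gene in log2 signal (vertical axis) for the 6 measured pairs in each of 4 Co and 4 Pg mice, with lines at group means. The groups separate for Rpl3l minus Rpl3 (1.23 to 1.43 against 0.73 to 1.18) and overlap in the other 5 pairs.

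Among the remaining large subunit genes, the highest values were those of Rpl11, Rpl39 and Rpl38. Rpl11, which with Rpl5 carries the 5S RNA and can bind Mdm2, was 16.28, 16.23, 16.24 and 15.88 in Co mice and 16.3, 16.37, 16.38 and 16.42 in Pg mice. The groups did not overlap, but Co 4 lay far below the other Co mice, and the log2 fold change of 0.21 (q = 0.237) became 0.12 (q = 0.283) without it and 0.09 (q = 0.736) with spike-in scaling. Its dim second probe gave -0.1 (q = 0.459). Rpl5 had 0.03 (q = 0.767). Rpl39, a small protein of the exit tunnel, was 15.79, 15.76, 15.85 and 15.76 in Co and 15.93, 15.97, 15.93 and 16.09 in Pg mice. All Pg mice lay above all Co mice, with a log2 fold change of 0.19 that missed the threshold (SE 0.06, q = 0.118) and passed it in 3 of 17 alternative analyses, but was 0.08 (q = 0.647) with spike-in scaling. Its other 4 probes gave 0.15, 0.21, -0.08 and 0.02, none past the threshold. Rpl38, named after its values were seen and known for skeletal defects in mice that lack a copy, was 16.6, 16.59, 16.64 and 16.63 in Co and 16.77, 16.78, 16.77 and 16.74 in Pg mice. Its SD was 0.02 in each group, the groups did not overlap, and its log2 fold change of 0.15 also missed the threshold (q = 0.117). With spike-in scaling none of the 78 genes, Rpl38 among them, had all Pg mice above all Co mice.

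The lowest value of any gene was that of Rpl23a, a protein at the tunnel exit where nascent chains meet their carriers. Its signal was 15.67, 15.67, 15.78 and 15.78 in Co mice and 15.53, 15.45, 15.59 and 15.6 in Pg mice. All Pg mice lay below all Co mice, the only gene of the 78 to do so. The log2 fold change of -0.18 (SE 0.06, q = 0.137) passed q under 0.1 in 2 of 17 alternative analyses, among them spike-in scaling with -0.28 (q = 0.0957). Its second probe gave -0.13 (q = 0.344). Rpl17 followed with -0.15 (q = 0.209), and its other probes gave 0.01 and 0.07. Rpl13a, which serves as a reference gene in many PCR assays, was 15.36, 15.29, 15.31 and 15.4 in Co and 15.4, 15.31, 15.32 and 15.41 in Pg mice, so the groups overlapped throughout and the log2 fold change was 0.02 (95% interval -0.11 to 0.15, q = 0.865). Rpl22, an RNA-binding subunit, was 14.32, 14.19, 14.32 and 14.25 in Co and 14.35, 14.33, 14.33 and 14.35 in Pg mice. Its groups did not overlap, by 0.01, and the log2 fold change of 0.07 had q = 0.449. With spike-in scaling Rpl13a, Rpl5 and Rpl22 had -0.09, -0.09 and -0.03, and Rpl17 had -0.27.

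In the small subunit, Rps10 came closest to the threshold. Rps10, a protein of the subunit's head and one of the genes mutated in Diamond-Blackfan anemia, was 16.5, 16.41, 16.55 and 16.43 in Co mice and 16.76, 16.64, 16.63 and 16.67 in Pg mice. The groups did not overlap, and the log2 fold change was 0.2 (SE 0.06, q = 0.105), but 0.06 (q = 0.727) with spike-in scaling. Its other probes gave 0.01 (q = 0.913) and -0.05 (q = 0.604). Rpsa, the laminin receptor protein, was 16, 15.85, 15.9 and 15.83 in Co and 16.2, 16.17, 16.08 and 15.92 in Pg mice. Pg 4 lay within the Co range, and the log2 fold change was 0.2 (q = 0.185), with 0.08 (q = 0.483) for its second probe.

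Rps6, the protein that S6 kinase phosphorylates downstream of mTORC1, had the lowest small subunit value. It was 15.42, 15.32, 15.47 and 15.42 in Co mice and 15.33, 15.25, 15.2 and 15.29 in Pg mice. Pg 1 lay just above Co 2, and the log2 fold change was -0.14 (SE 0.06, q = 0.204). Its second probe gave 0 (q = 0.993). Rps15a followed with -0.13 (q = 0.256), and its other 3 probes gave 0.03, 0.05 and -0.27. With spike-in scaling Rps6 and Rps15a both had -0.24. Rps27a, whose protein is made as a fusion with ubiquitin, had a log2 fold change of 0.11 (q = 0.292). In the stalk, Rplp0 was 16.42, 16.37, 16.24 and 16.15 in Co and 16.47, 16.55, 16.35 and 16.36 in Pg mice, overlapping groups with a log2 fold change of 0.14 (q = 0.348). Rplp1 and Rplp2, the acidic proteins bound to Rplp0, had 0.1 (q = 0.36) and 0.06 (q = 0.663). With spike-in scaling Rplp0 had 0.02, Rps27a -0.02 and Rpsa 0.09, Rplp1 and Rplp2 had -0.08 and -0.11, and with 75th percentile scaling Rplp2 had -0.04.

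**Figure D4:**
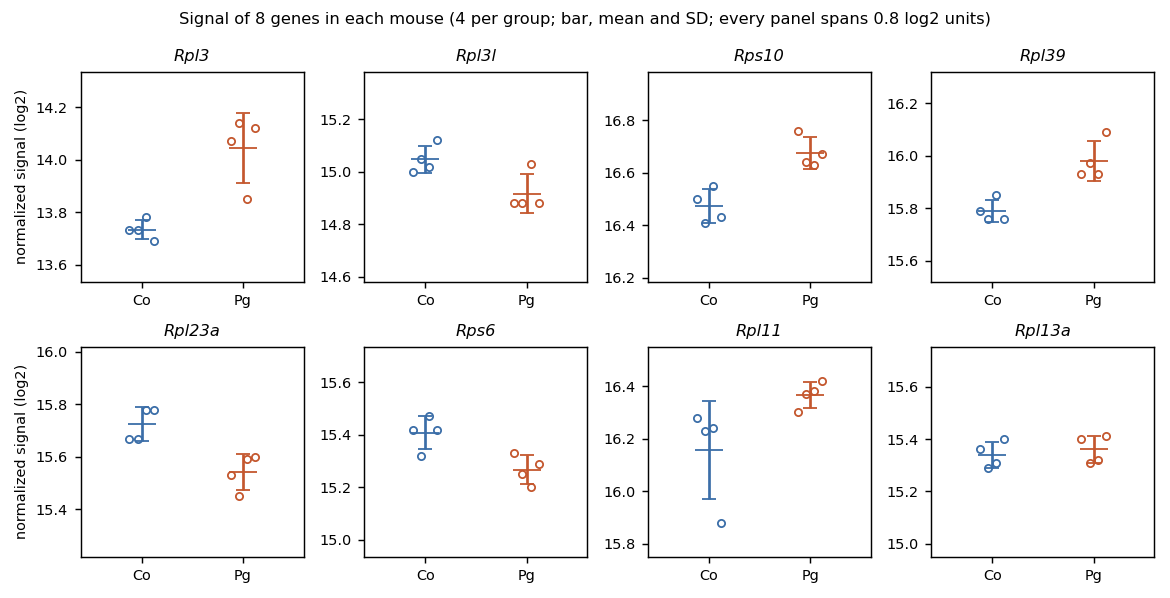
Normalized signal on the log2 scale (vertical axis) of 8 ribosomal protein genes in each of 4 Co and 4 Pg mice, with mean and SD; every panel spans the same range around its own gene. Rpl3, Rps10, Rpl39 and Rpl11 have no overlap with Pg mice higher, Rpl23a has none with Pg mice lower, and Rpl13a overlaps throughout. With spike-in scaling, not drawn, none of the 78 genes has all Pg mice above all Co mice.

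Probes of 1 gene did not always give 1 direction. Of 58 genes with several tested probes, 26 had all probes on the same side of 0 (21 higher and 5 lower in Pg mice). Over all 169 tested probes, 109 were higher with a median of 0.031. Beside Rpl3 the only probe with q under 0.1 was a dim second probe of Rps13, named after its values were seen, at 6.89, 7.64, 7.58 and 7.09 in Co mice and 8.57, 7.87, 7.93 and 8.01 in Pg mice. Its log2 fold change of 0.8 (q = 0.0947) met the limits for a DEG, whereas the bright Rps13 probe gave 0.13 (q = 0.189). Ribosomal protein genes have many processed copies in the genome, so which locus a probe reads is uncertain where copies share its sequence.

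With quantile normalization many of the genes varied together among mice of a group. After group means were taken out, the mean correlation between pairs of the 78 genes over the 8 arrays was 0.24, as a description across genes that share arrays. It was 0 among all other tested probes and 0 among other probes of like signal. Quantile normalization gives all arrays the same distribution, so values near 0 were largely fixed in advance for these large pools. No other gene family was compared. Of the 78 genes, 38 had a correlation above 0.5 with the mean of the others, with Rps27 (0.96), Rps6 (0.95), Rps9 (0.94) and Rps10 (0.91) in front. Only 6 lay below 0, Rpl3l lowest at -0.69. The mean deviation of the genes from their group was highest in Co 3 (0.045) and lowest in Co 2 (-0.044), and in Pg mice it ran from -0.03 in Pg 3 to 0.024 in Pg 1. The spread between Co mice was thus at least as large as the median shift between the groups.

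**Figure D5:**
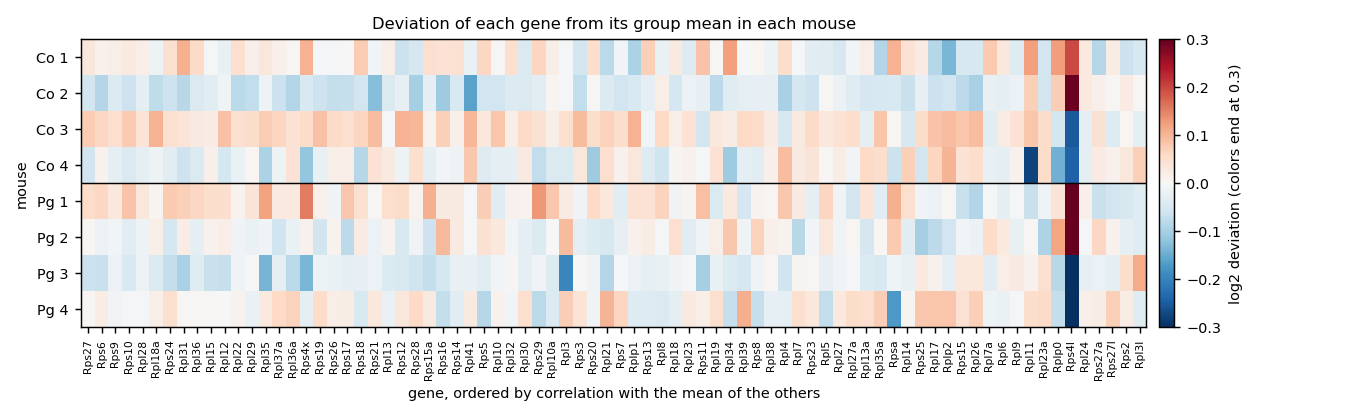
Deviation of each of the 78 genes from its group mean (color, log2 units) in each mouse (rows), with genes ordered by their correlation with the mean of the others. Co 3 is above its group mean in most genes and Co 2 below (mean deviations 0.045 and -0.044), while Rpl3l at the far right (-0.69) runs against the others.

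Further subunits lie outside the naming rule. Of 7 such genes and paralogs 6 were tested and 5 had a higher mean in Pg mice. Their median log2 fold change was 0.081, with none past q under 0.1. Fau, whose protein is made as a fusion with a ubiquitin-like protein, had 0.13 (q = 0.217), Rack1 0.1 (q = 0.398) and Rps3a1 -0.08 (q = 0.448). Rpl36al, Rpl7l1 and Rpl22l1 had 0.1 (q = 0.318), 0.07 (q = 0.745) and 0.02 (q = 0.896). Fau, Rack1, Rpl36al and Rpl22l1 each changed sign in at least 1 alternative analysis, with lowest values of -0.01, -0.04, -0.01 and -0.07.

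The other genes of translation were counted from lists, to be read against the 7.82% of all probes called and the 42.3% higher in Pg mice. The called share was 5% of TOP message genes, 6.67% of other translation factors, 4% of biogenesis genes, 3.85% of mTORC1 control genes and 0% of stress and turnover genes. These shares rest on 0 to 2 genes per list and were not tested against the array. Of 20 translation factors and other genes with TOP messages, 11 had a higher mean in Pg mice and 1 was called, Npm1, a nucleolar chaperone, lower with a log2 fold change of -0.24 (q = 0.0696). Of 30 other translation factors 15 had a higher mean, and Eif4g2, which supports cap-independent initiation, and Eef1a2, the elongation factor of muscle and neurons, were lower with -0.31 (q = 0.0613) and -0.32 (q = 0.0621). Of 50 ribosome biogenesis genes 31 had a higher mean; Ubtf, the RNA polymerase I factor, was lower with -0.26 (q = 0.0786) and Pes1, a large subunit assembly factor, higher with 0.22 (q = 0.0999). Of 26 genes of mTORC1 and TOP message control 8 had a higher mean, and Rps6kb2, an S6 kinase, was lower with -0.24 (q = 0.0935). Of 17 genes of ribosome stress and turnover 12 had a higher mean and 0 passed limma's q under 0.1, while 2 (11.8%, against 22.8% of all probes) had an unadjusted p under 0.05. Pelo, which rescues stalled ribosomes, had 0.21 (q = 0.138) and Ltn1, the ligase for stalled chains, -0.18 (q = 0.175). Among the lowest p of the lists that missed the threshold were Eif2s3x (-0.24, q = 0.115), Mlst8 (0.18, q = 0.132), Gnl3l (0.16, q = 0.154), Rptor (-0.15, q = 0.165), Eef2 (-0.11, q = 0.229), Usp10 (-0.11, q = 0.257) and Snhg1 (-0.16, q = 0.34). None of these genes was a DEG. Of 18 alternative analyses, Pes1 lost its call in 14, Npm1 in 11, Rps6kb2 in 10, Ubtf in 9 and Eif4g2 and Eef1a2 in 8 each, with no change of direction. Of the genes that missed the threshold, Gnl3l ran from 0 to 0.21 across the alternatives, Mlst8 from 0.07 to 0.2 and Eif2s3x from -0.34 to -0.18. Rptor ran from -0.24 to -0.12, Eef2 from -0.24 to -0.09, Usp10 from -0.2 to -0.08 and Snhg1 from -0.22 to -0.09.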

How the data were processed

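Total RNA from 8 mice was labelled with Cy3 and read by the authors with Agilent Feature Extraction 11.0.1.1. The deposited scanner files hold spot intensity (processed, mean, median and background signals), and the deposited table holds the authors' normalized log2 values. Here the processed intensities of non-control spots without population outliers were averaged per probe, quantile-normalized, set to a floor of 1 and taken to log2. The 33819 probes that at least 4 arrays measured well above background were fitted with limma 3.58.1 in R 4.3.3, with Benjamini-Hochberg adjustment, using the authors' limits for DEGs (q under 0.1, fold change above 1.5). The number of arrays, 4 per group, limits the precision, and correlations between arrays ranged from 0.9858 to 0.9943. The deposited table named 56 of the 78 tested genes' probes.

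Genes were named by the array, and 75 of 81 matched RefSeq by accession and all 81 by symbol. Named genes were those past q under 0.1, the 5 highest and 5 lowest fold changes, 10 well known subunits, all paralog pairs, untested genes, and for the other lists the DEGs or the 3 lowest p. Genes and lists were chosen with earlier results of these data known, and 1 gene was taken off the list of other subunits and is not reported here. Paralog pairs used exact two-sided permutation tests over the 70 splits of the 8 mice. Alternatives were normexp background correction, median signal, 75th percentile, no or spike-in scaling, the filter on dim probes, outlier spots, all probes of a gene, the deposited values, a replicate block and each array left out. The scripts were tested on simulated data. Separate animals are the replicates.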

Additional observations from a re-analysis of the deposited data

Results flagged for a closer look

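In 5 of 90 groups of 4 mice tested among the named genes, 1 mouse lay far from the others, about as often as the 1 in 20 that chance gives. Rpl11 was 15.88 in Co 4 and 16.23 to 16.28 in the other Co mice. Rpl3l was 15.03 in Pg 3 and 14.88 in the other Pg mice. Rps3a1 was 16.29 in Co 1 and 16.15 to 16.18 in the other Co mice. Ubtf was 15.4 in Pg 3 and 15.28 to 15.3 in the other Pg mice. Mlst8, a subunit of mTORC1, was 10.49 in Co 4 and 10.65 to 10.67 in the other Co mice.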

How the results depend on the processing

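The number of ribosomal protein genes past q under 0.1 was 1 (Rpl3) in the reported analysis. It was 3 with normexp background correction (Rpl3, Rpl39 and Rpl23a), 2 with the median signal (Rpl3 and Rpl39), 3 with probes above background on all 8 arrays (Rpl3, Rpl39 and Rps10), 2 with all probes of a gene (Rpl3 and Rps13), 1 with spike-in scaling (Rpl23a, lower), and 0 with no normalization, no filter or the deposited values, in which 56 of the genes were tested and the brightest Rpl3 probe was not analysed. Leaving out 1 mouse gave 0 to 1, with Rpl3 called only without Pg 3. The median of the genes was -0.01 with 75th percentile scaling and -0.09 with spike-in scaling; the cause was not tested. With 75th percentile scaling the list medians were -0.04 for TOP message genes, -0.03 for other translation factors, -0.1 for mTORC1 control and 0.02 for stress and turnover, with 1 biogenesis gene called; with no normalization 0 genes of these lists were called, and the mTORC1 median was -0.05. Rpl3l minus Rpl3 ranged from -0.55 to -0.4 when 1 mouse was left out, Rpl36al minus Rpl36a from -0.03 to 0.05 and Rpl22l1 minus Rpl22 from -0.13 to 0.01, the last 2 through 0. Rps4l minus Rps4x ranged from 0.19 to 0.43, Rpl7l1 minus Rpl7 from 0.02 to 0.19 and Rps27l minus Rps27 from -0.16 to -0.08. The -0.16, without Co 3, had an exact permutation p of 0.0286, and 0.171 after adjustment. Same-numbered mice did not deviate together (correlations of 0.059, -0.027, -0.068 and 0.178), which cannot show whether the numbers pair them. With the replicate number as a block 0 genes were called, as were 0 of all probes, and Rpl3 was 0.32 (limma q = 0.156). The Rps4l interval spanned -0.23 to 0.88, and the cause of its width was not tested.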
